A study of Mus musculus with 16 samples.

Results

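The aminoacyl-tRNA synthetases are the enzymes that load each transfer RNA with its amino acid. Their genes were taken as the protein-coding rows of the deposited table whose symbol has the form of a synthetase name, a letter for the amino acid followed by "ars" and at most a closing 1, 2, a or b, together with Eprs. This rule found 37 genes of the 54432 in the table, 20 for cytosolic enzymes and 17 for mitochondrial enzymes, whose symbols end in 2. All 37 had a mean of at least 10 normalized counts. Of all 21730 protein-coding genes, 14459 had a coding length and also reached this mean. The rule used symbols and gene types only, and no measured value.

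The RNA came from mouse THY-1+ germ cells, a culture enriched for spermatogonial stem cells that was established from C57 LacZ pups, grown on STO feeder fibroblasts and used between passages 9 and 12. All cultures were maintained with 1 ng/mL FGF2 beforehand, and all treatment media held GDNF at 20 ng/mL with its receptor GFRA1 at 150 ng/mL. The labels list 16 samples in 4 treatments of 4 replicates, which are a control with no FGF, FGF9 at 1 ng/mL or at 20 ng/mL, and FGF2 at 1 ng/mL. The name of the deposited table gives 12 libraries, and which of the 16 samples they are is not stated.

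The measurement used is the mean normalized count of each gene over all libraries and all 4 treatments, as the authors' DESeq2 run wrote it. It is a pooled value with no spread between replicates, so no test was made, and neighbouring genes in an order of levels cannot be said to differ. The FGF treatments were not compared here, because the remaining values of the table are the authors' own comparisons and were not used. Levels of different genes are given as the mean per kilobase (kb) of coding sequence, with the longest coding sequence of the gene in the GENCODE M21 annotation of GRCm38. The depth of each library is unknown here.

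In the cytosol the synthetases serve the translation of nuclear genes, and 8 of the enzymes (those named by Dars, Eprs, Iars, Kars, Lars, Mars, Qars and Rars) are held in a large multi-synthetase complex on scaffold proteins. A separate set of nuclear-encoded enzymes is imported into mitochondria, where it serves the translation of the proteins of the respiratory chain that mitochondrial DNA encodes. Glycyl- and lysyl-tRNA synthetase are provided to both compartments by the genes Gars and Kars. Mitochondria have no glutaminyl-tRNA synthetase of their own and make glutaminyl-tRNA through an amidotransferase. Many cytosolic synthetase genes are known targets of ATF4, the transcription factor of the amino acid response, which binds C/EBP-ATF elements.

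Promoter stretches are shown first, for 4 of the 6 members that hold a known motif of the amino acid response or of mitochondrial genes, and those of Aars and Vars2 are not printed. RefSeq promoter sequences (GRCm38.p6) matched 26 of the 37 genes by symbol, 12 cytosolic and 14 mitochondrial, and the 250 bases before the start were searched on both strands. The core of the C/EBP-ATF element, TGATGNAA or its reverse complement TTNCATCA, was found in 3 of 12 cytosolic promoters (25%), in 0 of 14 mitochondrial promoters and in 3.91% of the 27025 genes in the promoter table. The 3 genes were Aars, Gars and Tars. The core of the NRF1 site, GCATGCGC or GCGCATGC, was found in 3 of 14 mitochondrial promoters (21.4%), in 0 of 12 cytosolic promoters and in 2.56% of all genes. NRF1 is a transcription factor known for nuclear genes of mitochondrial proteins. These were Rars2, Wars2 and Vars2, the last of which had 2 matches. In the following stretches, written 5′ to 3′ on the strand of the gene, the capitals mark the match. The Gars stretch lies at chr6:55037941-55038000 on the plus strand, that of Tars at chr15:11399659-11399703 on the minus strand, that of Rars2 at chr4:34614876-34614943 on the plus strand and that of Wars2 at chr3:99140996-99141063 on the plus strand.
Gars: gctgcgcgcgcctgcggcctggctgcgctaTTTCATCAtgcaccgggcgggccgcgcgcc
Tars: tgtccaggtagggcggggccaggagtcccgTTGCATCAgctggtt
Rars2: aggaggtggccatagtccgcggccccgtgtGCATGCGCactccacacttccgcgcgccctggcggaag
Wars2: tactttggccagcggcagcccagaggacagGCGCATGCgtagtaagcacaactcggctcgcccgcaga

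The E-box CACGTG was found before the starts of 3 of the 12 cytosolic genes (Aars, Farsb and Iars), of 0 of the 14 mitochondrial genes and of 6.86% of all genes. The ETS core, CCGGAAGT or ACTTCCGG, was found in the Farsa promoter, 1 of 12 cytosolic promoters (8.33%), in 0 of 14 mitochondrial promoters and in 3.23% of all genes. A match is a description of letters and not of binding, and with 12 and 14 promoters these shares rest on few genes. The set of all genes with a promoter was not limited by gene type or by level. All members are protein-coding and had a mean of at least 10, so the motif shares are not of like sets.

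Cytosolic synthetase genes had higher levels than mitochondrial ones. The median level per kb of coding sequence was 2199 over the 20 cytosolic genes and 603 over the 17 mitochondrial genes, a ratio of 3.65. Of the cytosolic genes, 0 lay below the mitochondrial median, and 1 mitochondrial gene, Lars2, lay above the cytosolic median. The cytosolic levels spanned a 3.93-fold range, from 873 for Cars (cysteine) to 3430 for Dars (aspartate). Without Lars2 the mitochondrial levels spanned a 12.8-fold range, from 154 for Wars2 (tryptophan) to 1975 for Iars2 (isoleucine). The levels of both sets thus overlapped, but 12 of the 20 cytosolic genes lay above every mitochondrial gene other than Lars2.

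Among the 14459 protein-coding genes that had a coding length and reached a mean of 10, the median level was 497 per kb. The synthetases had a median at the 72.1 percentile of these genes, the cytosolic genes at the 84.7 percentile and the mitochondrial genes at the 54.3 percentile. Above the 90th percentile lay 5 of the 37 genes, which were Lars2, Dars, Rars, Gars and Eprs. Below the 50th percentile lay 5 genes, all mitochondrial, which were Hars2, Mars2, Pars2, Aars2 and Wars2. All synthetases together held 0.523% of the summed mean of all genes.

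**Figure D1:**
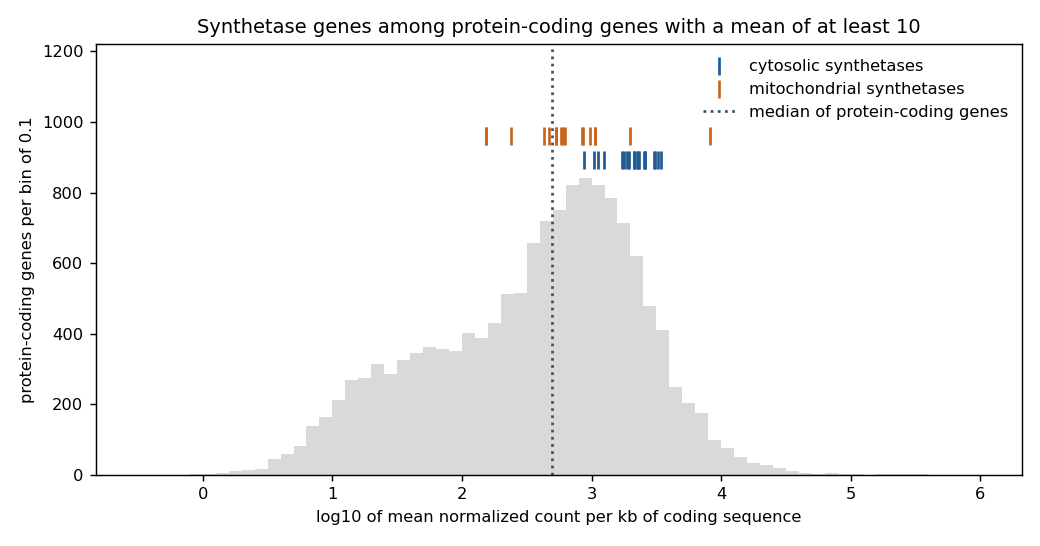
Histogram of the mean normalized count per kb of coding sequence (log10, x axis) over protein-coding genes with a mean of at least 10 (y axis, genes per bin), with a tick for each synthetase gene and a dotted line at the median of all these genes. All 20 cytosolic ticks lie to the right of the dotted line, whereas the 17 mitochondrial ticks lie on both sides of it and Lars2 stands farthest to the right.

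Enzymes of the multi-synthetase complex had a median of 2577 per kb over 8 genes, against 1925 over the other 12 cytosolic genes, and the ranges of both sets overlapped. Dars had a mean of 5155 normalized counts over its 1503 bases of coding sequence (3430 per kb), and Rars, the arginyl enzyme, a mean of 6389 (3227 per kb). Eprs, which carries the glutamyl and prolyl activities in a single protein and has the longest coding sequence of the 37 genes (4536 bases), had a mean of 13850, or 3053 per kb. These 3 genes stood at the top of the complex.

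Iars (isoleucine) had 2581 per kb, Kars (lysine) 2573, Qars (glutamine) 2552 and Mars (methionine) 2329. These 4 genes lay within a narrow band. Lars, the leucyl enzyme, stood apart below the rest of the complex at 1126 per kb, so that levels within the complex spanned a 3.05-fold range. Of the 3 scaffold genes, Aimp1 had 1960 per kb, Aimp2 1424 and Eef1e1 3263, a range that overlaps that of the enzymes.

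Among the cytosolic genes outside the complex, Gars (glycine) had the highest level at 3103 per kb, with a mean of 6787. Nars (asparagine) had 2263 per kb and Aars (alanine) 2260. Phenylalanyl-tRNA synthetase is built of alpha and beta chains, and their genes had similar levels, 2139 per kb for Farsa and 1959 for Farsb, a ratio of 1.09. Sars (serine) stood at 2136, Tars (threonine) at 1891, Hars (histidine) at 1788 and Vars (valine) at 1724 per kb. The lowest levels were those of Yars (tyrosine) at 1240, Wars (tryptophan) at 1053 and Cars (cysteine) at 873 per kb. By catalytic class, class II cytosolic genes spanned a 1.92-fold range over 10 genes and class I genes a 3.70-fold range over 9 in level per kb of coding sequence. The order of the class medians depended on the length used, with 2199 for class II and 1724 for class I per kb of coding sequence, but 3946 and 5934 for the mean without division by length and 1541 and 1597 per kb of the longest coding transcript. Eprs holds both folds and was left out of these classes.

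**Figure D2:**
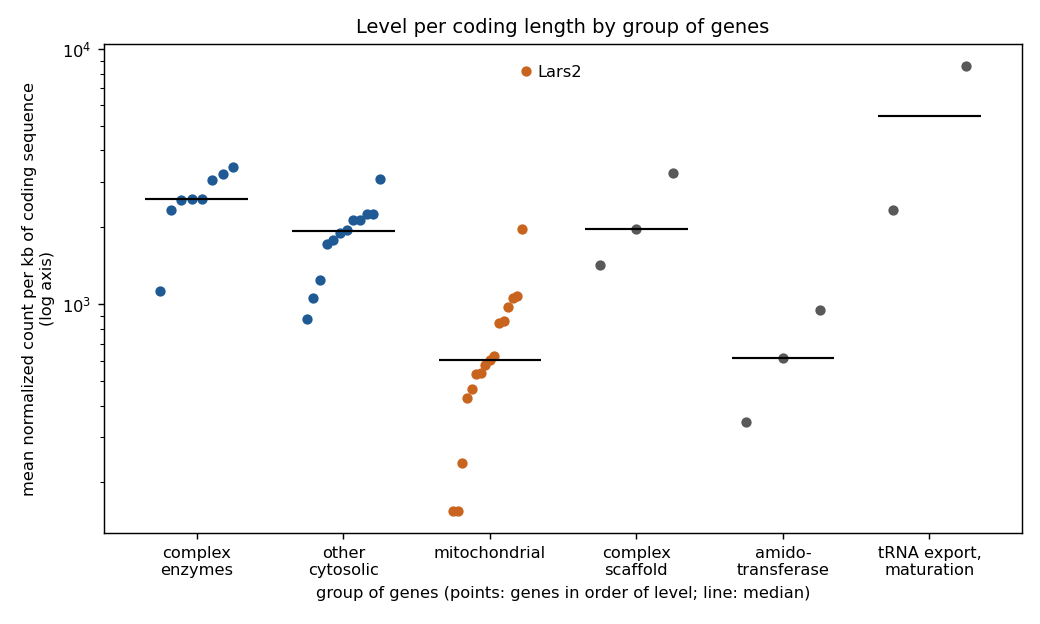
Mean normalized count per kb of coding sequence (y axis, log scale) of each gene (points, in order of level within a group) with the median of each group (line), for the synthetases of the complex, the other cytosolic synthetases, the mitochondrial synthetases and 3 groups of other tRNA genes. The complex has a median of 2577, the other cytosolic genes 1925 and the mitochondrial genes 603, and Lars2 lies far above the rest of its group.

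Mitochondrial genes were at lower levels, with Lars2 as the exception. Iars2 had a mean of 5997 (1975 per kb), the highest of the other 16 genes. Nars2 had 1058 per kb, Tars2 974, Sars2 855 and Rars2 841. Vars2 had 628 per kb, Ears2, the glutamyl enzyme, 603, Yars2 578, Fars2 535 and Cars2 530. These 9 genes and Iars2 lay above the median of all protein-coding genes.

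Hars2 had 466 per kb and Mars2 430. At the lower end stood Pars2, the prolyl enzyme, with a mean of 365 (238 per kb), Aars2 with a mean of 454 (155 per kb) and Wars2 with a mean of 167 (154 per kb). The amidotransferase genes had 614 per kb for Qrsl1, 346 for Gatb and 951 for Gatc, within the range of the mitochondrial synthetases. Mtfmt, which formylates the initiator methionyl-tRNA of mitochondria, had 543 per kb.

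For 17 amino acids a cytosolic gene could be set beside a mitochondrial one, in 18 pairs because phenylalanine has 2 cytosolic genes. The cytosolic gene had the higher level per kb in 17 of the 18 pairs. The median ratio was 3.43, and 14 pairs had a ratio of at least 2. Per kb of coding sequence the largest ratio was 14.6 for alanine (Aars 2260 and Aars2 155 per kb), followed by 12.8 for proline (Eprs 3053 and Pars2 238) and 6.82 for tryptophan (Wars 1053 and Wars2 154). By this measure alanine and proline combined a cytosolic level above the cytosolic median with a mitochondrial level near the bottom. Both tryptophan genes were low among the genes of their compartment. For alanine this depended on the length, since per kb of the longest coding transcript Aars (1141) lay below the cytosolic median (1649). The order of the largest ratios held for coding length only. Without division by length proline came first at 37.9, with alanine at 14.4, and per kb of the longest coding transcript methionine came first at 32.1, with proline at 23.5 and alanine at 8.41. The smallest ratios above 1 per kb of coding sequence were 1.94 for threonine, 1.65 for cysteine and 1.31 for isoleucine. For leucine the order was the opposite, with 1126 per kb for Lars and 8176 for Lars2, a ratio of 0.138.

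**Figure D3:**
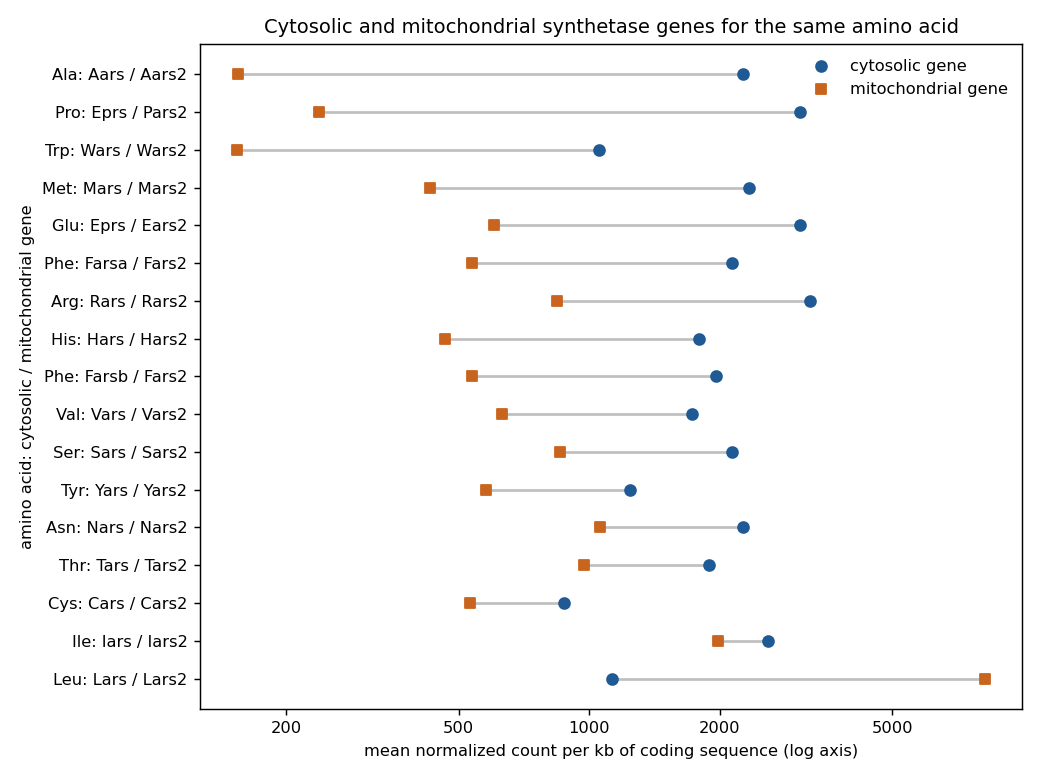
Mean normalized count per kb of coding sequence (x axis, log scale) of the cytosolic gene (circle) and the mitochondrial gene (square) of 17 pairs, in order of their ratio (y axis). The circle lies to the right in 16 of the 17 pairs drawn, by 14.6-fold for alanine and 1.31-fold for isoleucine, and to the left for leucine alone.

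Lars2 (ENSMUSG00000035202), the mitochondrial leucyl enzyme, lies at chr9:123366927-123462666 of GRCm38 on the plus strand. Its mean was 22125 normalized counts, the highest of the 37 genes, and its level per kb was 2.38 times that of the next gene, Dars, and 4.14 times that of the next mitochondrial gene, Iars2. It held 49.8% of the summed mean of the 17 mitochondrial genes. Among noncoding genes, Gm42418 had a mean of 90640, Gm26917 8123 and AY036118 59.3. The mitochondrial ribosomal RNA genes mt-Rnr1 and mt-Rnr2 had means of 8159 and 16157. Whether reads of ribosomal RNA are part of the Lars2 mean was not tested. Of all stretches of 31 bases in the annotated Lars2 transcripts, 0.869% also occurred on the same strand in transcripts of other genes. That share covers annotated transcripts only and counts each stretch once. It therefore does not show where in Lars2 the reads lie or that they are unique to it.

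Shared sequence bears on a few other members. Aars shared 13.9% of its 31-base stretches with other genes on the same strand, nearly all with Exosc6, a subunit gene of the RNA exosome that was listed at 0. Iars shared 14.7%, nearly all with the processed pseudogene Gm4849, which had a mean of 0.937. In these stretches reads of the genes cannot be told apart by sequence. How far such reads add to the levels of Aars and Iars, and so to the alanine and isoleucine ratios, was not tested. For Iars2, 23.5% of the stretches occurred on the opposite strand in other transcripts, most of them in Rab3gap2, which had a mean of 4386. The libraries were stranded, but how the count treated strand is not stated.

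Several members start close to a gene on the opposite strand. Within 1000 bases of the start of 10 of the 37 genes (27.0%) lay the start of a protein-coding gene on the other strand, against 10.9% of the 21951 protein-coding genes in the annotation. The annotation set was not limited to genes with a mean of at least 10, which all members had, so the shares are not of like sets. Hars and Hars2 are each other's partner and both count. The shortest distances were 13 bases between Rars2 and Orc3, a subunit gene of the origin recognition complex, and 33 bases between Yars and S100pbp. Hars and Hars2, the cytosolic and mitochondrial histidyl genes, start 197 bases apart on opposite strands of chromosome 18, and the annotated genes overlap at these ends. Between them 165 stretches of 31 bases were shared on opposite strands. Their levels differed 3.84-fold per kb, and what the overlap adds to either level was not tested. Sars2 starts 172 bases from Mrps12, which encodes a protein of the mitochondrial ribosome. Chromosome 1 held 6 members, and chromosomes 7, 8 and 18 held 4 each.

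Other genes that handle tRNA reached both above and below the levels of the synthetases. Ssb, the La protein that binds newly made tRNA, had 8550 per kb, and Xpot, the export receptor of tRNA, had 2340. Eef1a1, which brings charged tRNA to cytosolic ribosomes, had 85561 per kb, and its mitochondrial counterpart Tufm had 2523. Sepsecs and Pstk, which make selenocysteinyl-tRNA, had 922 and 444 per kb. Among editing factors and relatives, Aarsd1 had 669, Dtd1 911, Prorsd1 599 and Tarsl2, a threonyl-tRNA synthetase-like gene whose symbol the rule does not match, 47.3 per kb.

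The mixture of cells behind these values was checked with marker genes. Of 8 markers of undifferentiated spermatogonia all had a mean of at least 10, from 380 for Nanos2 to 17225 for Ret. The 3 markers taken for germ cells reached from 2444 for Tex101 to 47959 for Dazl. In the study's list of self-renewal and differentiation genes, Tex101 follows Dmrtb1, Kit and Dmrt2. All 8 markers of fibroblasts were also at or above 10, from 65.7 for Thy1 to 10622 for Fn1. A mean of 10 sets few genes apart, since 14459 of the 21730 protein-coding genes had a coding length and reached it. Thy1 is also the antigen the germ cells were selected with. The summed mean was 15210 for the fibroblast markers and 61906 for those of undifferentiated spermatogonia. These sums are not divided by length and cover unlike genes, so they do not give the share of either cell type. Fn1 made up most of the fibroblast sum, and the other 7 markers summed to 4588. The germ cells had been separated from the feeder by blowing them off before RNA extraction. The study, citing earlier work, describes this step as leaving nearly only germ cells. The 3 markers of differentiating spermatogonia had means of 686 for Kit, 344 for Crabp1 and 50.3 for Stra8. Of 4 Sertoli cell markers, Sox9 had a mean of 424 and Wt1 273, and Gata4 and Amh were under 10. Of 4 macrophage markers, Cd68 had a mean of 130 and Ptprc 93.6, and Csf1r and Adgre1 were under 10. Of 4 Leydig cell markers, Star had a mean of 78.8, and the other 3 were under 10, with Hsd3b1 listed at 0. Synthetases are expressed in all cell types, so the levels are those of the mixture, and fewer cells of a type and less RNA per cell cannot be told apart in it. The part of feeder and other cells in the levels was not tested.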

How the data were processed

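The deposited table was made by the authors from polyA RNA libraries (TruSeq Stranded mRNA), with STAR, Salmon and DESeq2 named in the submitters' processing notes and GRCm38 as the genome. The sources used here give no versions. The signal column used here is the authors' mean over all libraries of counts divided by size factors, identical in the 3 comparison blocks of the deposited table. The other value columns hold the authors' own comparisons with control (fold changes on the log2 scale with their errors, test statistics and p-values) and were not used, so the fit of FGF treatments that had been planned for values per library was not made.

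Of the 54432 gene IDs, 54346 were found in GENCODE M21. The mean was divided by the longest annotated coding sequence, without the stop codon, instead of a protein length, since no protein table was used. Percentiles were taken among protein-coding genes with a mean of at least 10. Stretches of 31 bases were compared between all annotated transcripts, and this step and the percentiles were tested on simulated data. Synthetases found by the rule were named, except for a result that is not reported here, with other tRNA genes and cell type markers from fixed lists. The members, lists and motifs were chosen with earlier results of these data known, and the motifs and neighbouring starts after the levels were seen. Python 3.11.15, pandas 2.3.3 and numpy 2.4.6 were used. The alternatives were a minimum mean of 1 or 50, no minimum, no division by length, division by transcript length, and leaving out Gars, Kars or Lars2. No column of values per sample was left unmapped.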

Additional observations from a re-analysis of the deposited data

How the results depend on the processing

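The ratio of the cytosolic to the mitochondrial median was 3.65, and it kept its direction and stayed within 1.5-fold under the planned settings and when Lars2 was left out. The setting without a minimum mean could not change this ratio, because all 37 genes had passed that minimum. The ratio of the summed levels, a setting chosen after seeing the data, was 2.25 with Lars2 and 3.90 without it. The cytosolic gene was the higher in 17 of 18 pairs under each way of dividing by length. Of the 36 values of single pairs under other settings, 12 moved by over 1.5-fold and none changed direction. The order of the largest ratios changed with the length used, and the Mars2 transcript that moves the methionine ratio from 5.42 to 32.1 has 11294 bases. Transcript length was added for the pairs after seeing the data. All 37 genes passed a minimum mean of 1 and of 50. No paired analysis was possible because the values pool all libraries. The fit of FGF treatments with its replicate block, other scaling and left-out replicates was not run for the same reason. The depth of each library and the spread between replicates are unknown here, so no level carries an error.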
